A study of Mus musculus with 6 samples.

Results

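Cyclin-dependent kinase inhibitors and a small set of antiproliferative genes were followed across 6 arrays. The RNA came from mouse bone marrow-derived mast cells, alone or in coculture with fibroblasts. Arrays of the cocultures also read fibroblast markers, as given below. The set held 10 genes: the Cip/Kip inhibitors Cdkn1a, Cdkn1b and Cdkn1c, the Ink4 inhibitors Cdkn2a, Cdkn2b, Cdkn2c and Cdkn2d, the BTG family genes Btg1 and Btg2, and the cyclin G gene Ccng2. The members, and the gene lists set beside them below, were chosen with earlier results of these data known. Their counts against all genes are therefore descriptive. Every non-control probe that carries the name of a member was taken, and no measured value enters that choice of probes. This gave 16 probes on 25 spots, out of 39416 probes for 29590 genes. All 16 probes were well above background, as judged by the scanner software, on all 6 arrays.

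Each group was 1 array, hybridised with RNA pooled from 3 samples, so no group had a replicate and no p-value was computed. All groups were mast cells grown from bone marrow for 4 to 6 weeks with interleukin-3 at 10 ng/ml. Of the 4 cocultures, kept for 4 days with stem cell factor at 100 ng/ml on Swiss 3T3 cells (an established mouse fibroblast line), one held mast cells labelled Pla2g3-/- and one Pla2g3+/+ mast cells, both on WT fibroblasts. The others held WT mast cells on Lpar1-/- fibroblasts, made with CRISPR/Cas9 and single-cell cloning, and on Lpar1+/+ fibroblasts. The remaining groups were mast cells labelled Pla2g3-/- and Pla2g3+/+ mast cells without fibroblasts; the sources used here do not say whether these were given stem cell factor. Lpar1 is a lysophosphatidic acid receptor gene, and Pla2g3 the gene of a phospholipase that cells secrete.

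Cip/Kip proteins bind cyclin-CDK complexes and hold back entry into S phase, while Ink4 proteins bind CDK4 and CDK6 and keep them from D-type cyclins. Their abundance is set at the level of transcription and, for p27 and p21 in particular, by regulated proteolysis, which an mRNA array does not see. BTG proteins recruit the CCR4-NOT deadenylase to mRNAs and slow proliferation. Cyclin G2 is an unconventional cyclin whose mRNA is typically high in resting cells. In mast cells, signalling from the stem cell factor receptor Kit drives survival and division.

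Values are log2 of the scanner's processed intensity minus the 75th percentile of the same array, so 0 is the 75th percentile and 1 unit is a 2-fold difference. The brightest probe of each gene is given unless another is named, and probes are never set against each other. A gene was called higher or lower at a difference of 2-fold or more. The scanner software's spot error of a difference had a median of 0.20 over the members and was at most 0.31. It covers 1 hybridisation and not the spread between cultures. As a yardstick, 95% of 23996 genes differed by no more than 0.62 between the 2 cocultures in which neither cell type was mutated. These cocultures lay on the same slide, so the yardstick does not cover differences between slides. Gaps between cocultures and cells alone, which lay on another slide, are set against it as a size only.

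The library labels were checked first. Pla2g3 went against its label: it read 0.51 in cells labelled Pla2g3-/- against -6.31 in Pla2g3+/+ cells without fibroblasts, and -1.84 against -7.31 in coculture. In the cocultures of WT mast cells it read -6.58 with Lpar1+/+ fibroblasts and -4.85 with Lpar1-/- fibroblasts. Groups are therefore called by their label, and every direction below is that of the labels as deposited. The sources used here do not say where the Pla2g3 probe lies relative to the altered part of the gene. Lpar1 read -3.89 with Lpar1-/- fibroblasts against -4.14 with Lpar1+/+ fibroblasts, and -2.85 and -2.84 in labelled Pla2g3-/- and Pla2g3+/+ cells without fibroblasts, so its level did not bear out the fibroblast label and gave no check of it. All 10 mast cell markers, among them Kit, Fcer1a and Cpa3, were well above background on every array. Their summed level, in multiples of the array's 75th percentile, was 604 in the labelled Pla2g3-/- coculture, 624 in the Pla2g3+/+ coculture, 517 with Lpar1-/- fibroblasts, 599 with Lpar1+/+ fibroblasts, and 456 and 477 in the labelled Pla2g3-/- and Pla2g3+/+ cells alone. In the labelled Pla2g3-/- coculture and with Lpar1-/- fibroblasts 3 of the 10 were lower and 0 higher: the histamine-forming enzyme gene Hdc by -2.29 and -3.28, and the protease genes Mcpt4 by -1.13 and -2.21 and Tpsb2 by -1.21 and -1.22. These markers moved with the member results below and their part in them was not tested. The 2 arrays without fibroblasts lay on one slide and the 4 cocultures on another, so the effect of coculture cannot be told apart from that of the slide, whereas the comparisons between genotypes each lie within a slide. Whole RNA was measured, so fewer cells of a type and less RNA per cell cannot be told apart either.

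Among the Cip/Kip genes, Cdkn1b was higher and Cdkn1a lower in both altered cocultures. Cdkn1b, which encodes p27, read 3.92 in the labelled Pla2g3-/- coculture against 1.62 in the Pla2g3+/+ coculture, a difference of 2.30 or 4.92-fold. With Lpar1-/- fibroblasts it read 4.02 against 1.72 with Lpar1+/+ fibroblasts, again 2.30 or 4.92-fold. Without fibroblasts the labelled Pla2g3-/- cells and the Pla2g3+/+ cells read 2.84 and 2.80. On this probe the 6 arrays thus formed 3 levels, with the altered cocultures on top, the cells alone between and the unaltered cocultures lowest. Each step between levels was wider than the yardstick, but ran between slides, which the yardstick does not cover. The second Cdkn1b probe, 1818 bases upstream, differed by 2.64 and 2.56 in the comparisons between cocultures. In coculture over cells alone it differed by 0.61 under the Pla2g3-/- label, inside the yardstick, and by -1.98 in Pla2g3+/+ cells.

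Cdkn1a, which encodes p21 and is a classical p53 target, had the opposite order. It read 2.24 in the labelled Pla2g3-/- coculture against 3.90 in the Pla2g3+/+ coculture, and 2.34 with Lpar1-/- fibroblasts against 4.02 with Lpar1+/+ fibroblasts. Both differences were -1.67, a 3.17-fold and a 3.19-fold lower signal. The labelled Pla2g3-/- and Pla2g3+/+ cells alone lay between, at 3.16 and 3.24. The brightest Cdkn1a probe was printed on 10 spots, whose SD was between 0.02 and 0.07 on each array. Those spots reached at most 2.42 on either altered coculture and were at least 3.74 on either unaltered one, which describes the precision of a hybridisation and not of a group. The 3 Cdkn1a probes, spread over 9391 bases, are shown here by the first 30 of their 60 bases because they differ in size of response. In the genotype comparison in coculture they gave -1.67, -1.42 and -1.10, and in the Lpar1 comparison -1.67, -1.57 and -0.65. All 6 values were negative, and the last was the one that stayed within 2-fold.
Cdkn1a probe at mm9 chr17:29237377-29237436, plus strand: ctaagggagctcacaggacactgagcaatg
Cdkn1a probe at mm9 chr17:29235299-29235358, plus strand: tggggtagtttccatagtgacccgggtcct
Cdkn1a probe at mm9 chr17:29227986-29228045, plus strand: aatggagacagagaccccagataattaagg

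Cdkn1c, the imprinted gene for p57, was dim throughout. It lay between -7.25 and -6.74 on the 6 arrays and was within 2-fold in every comparison, with differences of 0.08 for the labelled genotype in coculture and -0.29 for the Lpar1 fibroblasts.

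**Figure D1:**
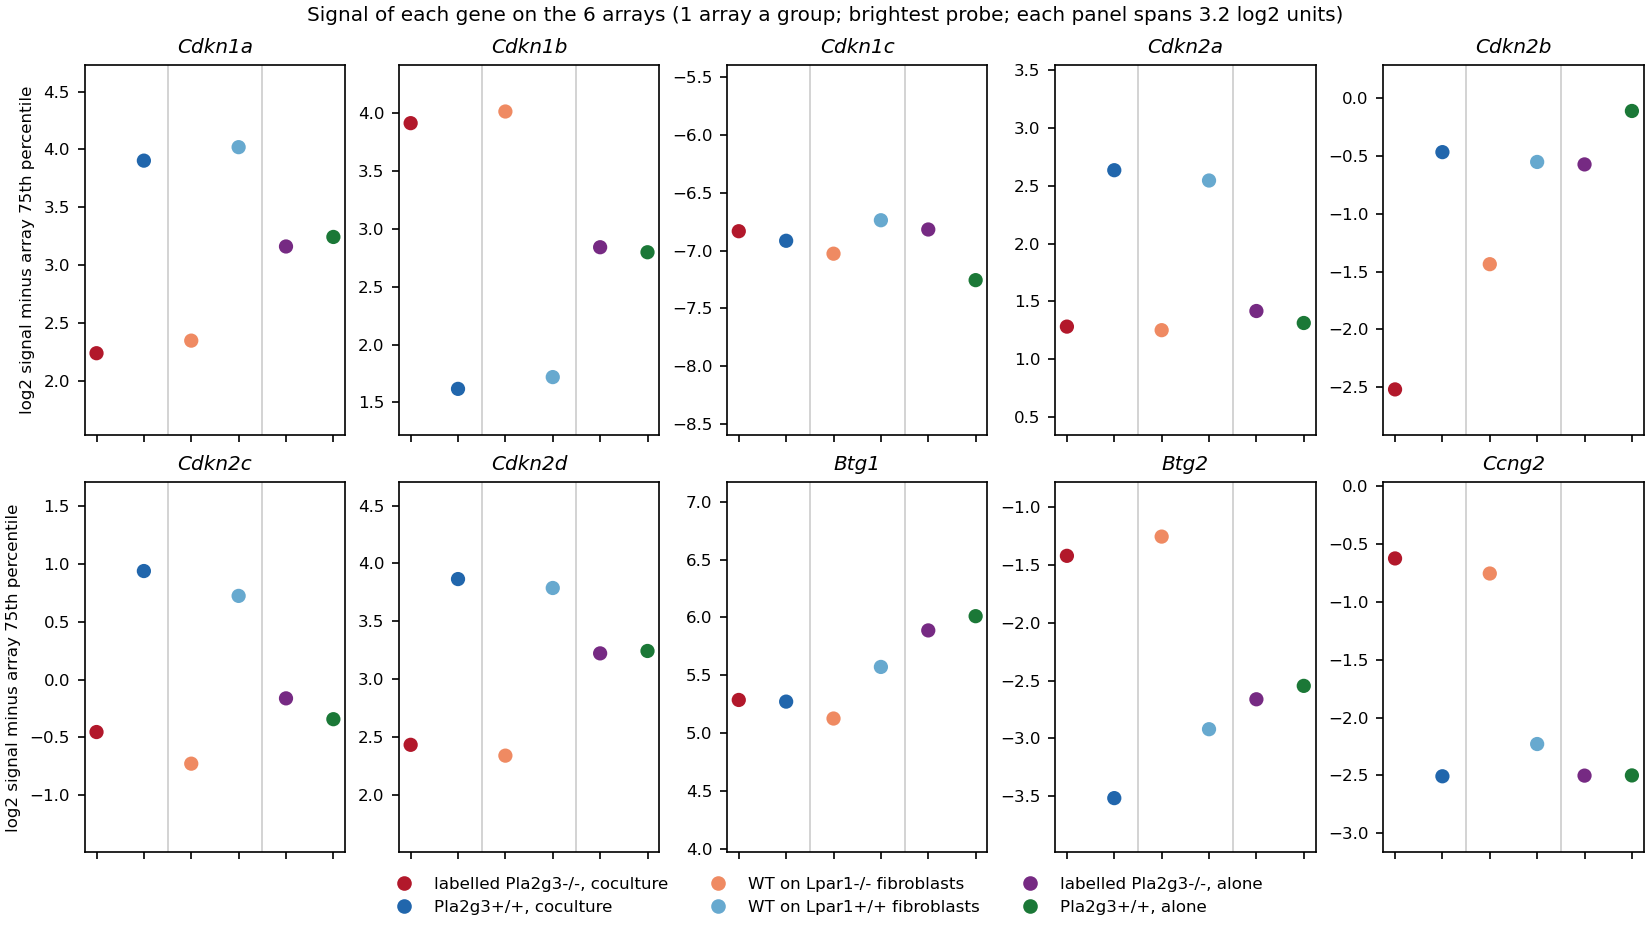
Level of each gene on the 6 arrays, as log2 of the processed signal minus the array's 75th percentile, brightest probe, 1 point for each array. Each panel spans the same range but has its own axis, so heights are comparable within a gene only. Cdkn1b, Btg2 and Ccng2 were highest on both altered cocultures, whereas Cdkn1a, Cdkn2a, Cdkn2c and Cdkn2d were highest on both unaltered ones.

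All Ink4 genes read lower in the altered cocultures, with Cdkn2b past 2-fold for the labelled genotype but not for the fibroblast genotype. Cdkn2a, the Ink4a/Arf gene, read 1.28 in the labelled Pla2g3-/- coculture against 2.64 in the Pla2g3+/+ coculture, 2.55-fold lower, and 1.25 with Lpar1-/- against 2.55 with Lpar1+/+ fibroblasts, 2.45-fold lower. The labelled Pla2g3-/- and Pla2g3+/+ cells alone read 1.42 and 1.31, so the altered cocultures lay at the level of cells without fibroblasts. Its second probe, 138 bases away, gave larger differences of -1.64 and -1.87. The files do not say which of the Ink4a and Arf transcripts either probe reads.

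Cdkn2c, which encodes p18, had the same pattern. It read -0.45 in the labelled Pla2g3-/- coculture against 0.94 in the Pla2g3+/+ coculture, and -0.73 with Lpar1-/- against 0.72 with Lpar1+/+ fibroblasts. These are differences of -1.39 and -1.45, or 2.63-fold and 2.73-fold. The cells alone, at -0.16 for the labelled Pla2g3-/- and -0.34 for the Pla2g3+/+ cells, again stood with the altered cocultures within the yardstick. These gaps run between slides, which the yardstick does not cover.

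Cdkn2d, which encodes p19 and is described as a gene whose mRNA varies with the cell cycle, read 2.43 against 3.86 for the labelled Pla2g3-/- and Pla2g3+/+ cocultures, and 2.34 against 3.79 for Lpar1-/- and Lpar1+/+ fibroblasts. The differences were -1.43 and -1.45, or 2.70-fold and 2.73-fold. The labelled Pla2g3-/- and Pla2g3+/+ cells alone, at 3.22 and 3.24, stood between. In the order of levels, the gap to the next higher coculture was within the yardstick and that to the next lower one was not. Both gaps run between slides, beyond what the yardstick covers.

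Cdkn2b, which encodes p15 and is a TGF-beta-responsive gene in several cell types, departed from its relatives. It read -2.52 in the labelled Pla2g3-/- coculture against -0.47 in the Pla2g3+/+ coculture, a difference of -2.05 or 4.15-fold. With Lpar1-/- fibroblasts it read -1.44 against -0.55 with Lpar1+/+ fibroblasts, a difference of -0.88 or 1.85-fold, wider than the yardstick and within 2-fold. The second Cdkn2b probe gave -2.12 and -1.17, so for this gene the call in the Lpar1 comparison depends on the probe. The other 4 arrays, with the labelled Pla2g3-/- and Pla2g3+/+ cells alone at -0.57 and -0.11, held together within neighbouring gaps below the yardstick. Some of those gaps run between slides, which it does not cover.

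The antiproliferative genes outside the inhibitor families divided by gene. Btg2, an immediate early gene and p53 target, read -1.42 in the labelled Pla2g3-/- coculture against -3.52 in the Pla2g3+/+ coculture, a difference of 2.10 or 4.28-fold. With Lpar1-/- fibroblasts it read -1.25 against -2.92 with Lpar1+/+ fibroblasts, a difference of 1.67 or 3.17-fold. The labelled Pla2g3-/- and Pla2g3+/+ cells alone read -2.66 and -2.54. Btg2 had the widest gap of the members between the 2 unaltered cocultures, 0.60, just inside the yardstick.

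Ccng2 read -0.62 in the labelled Pla2g3-/- coculture against -2.51 in the Pla2g3+/+ coculture, 3.69-fold higher, and -0.75 with Lpar1-/- against -2.23 with Lpar1+/+ fibroblasts, 2.78-fold higher. Both groups of cells alone read -2.50. The altered cocultures were thus the arrays that stood apart for this gene, and the other 4 lay within 0.28 of each other.

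Btg1 was the member whose probes disagreed. The brightest probe read 5.29 against 5.27 for the labelled Pla2g3-/- and Pla2g3+/+ cocultures, and 5.12 against 5.57 for Lpar1-/- and Lpar1+/+ fibroblasts, which are differences of 0.01 and -0.45. The other probe, 3287 bases downstream, read 1.41 against 0.21 and 1.13 against 0.37, differences of 1.21 and 0.76. The probes thus differed in size in the first comparison and in sign in the second. It was also 8.17-fold lower in the Pla2g3+/+ coculture than in Pla2g3+/+ cells alone, where the brightest probe differed by -0.74. Both probes are printed by their first 30 of 60 bases because no single Btg1 value can be given. The annotation used here has no gene models of the probes' build, so which transcript end each one reads is not stated.
Btg1 probe at mm9 chr10:96082071-96082130, plus strand, brightest: gagtctttcccacaaaccaccatctatttt
Btg1 probe at mm9 chr10:96085358-96085417, plus strand: gcagctttaaatcagtcggatttatgaata

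**Figure D2:**
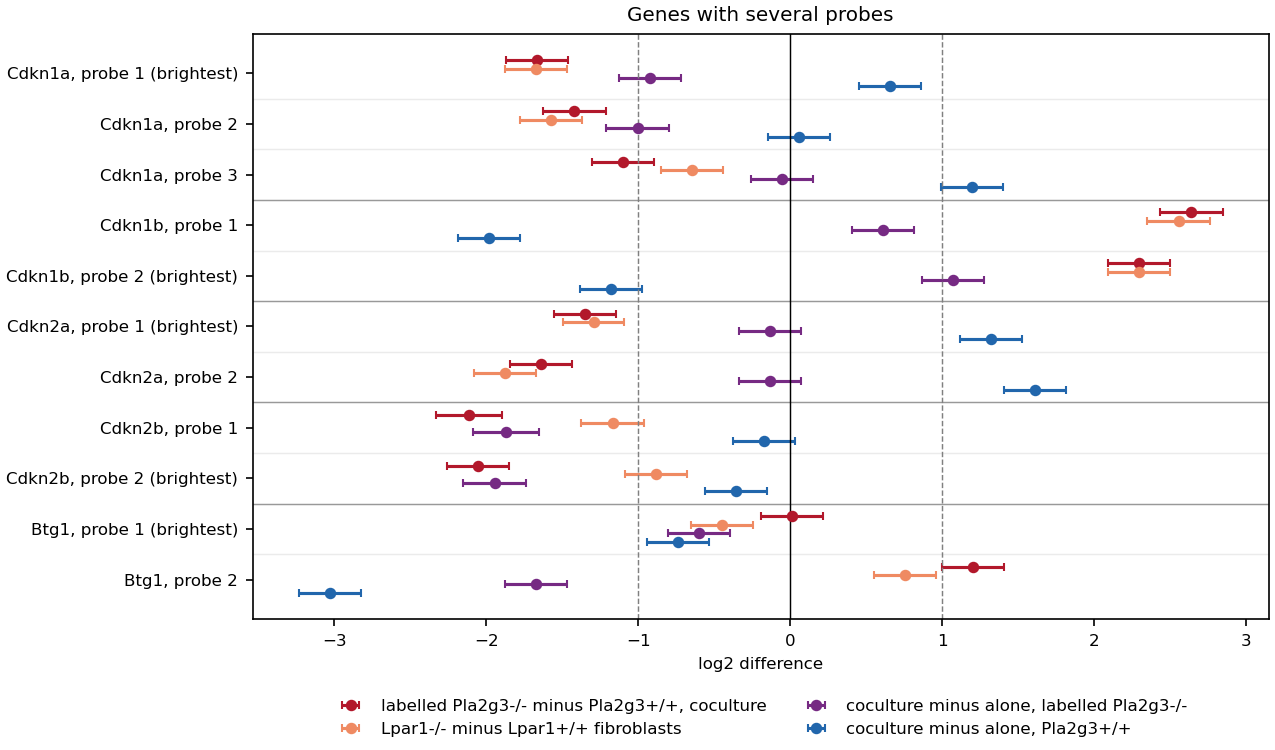
Log2 difference of every probe of the 5 genes with several probes, in 4 comparisons, with the scanner software's spot error as bars and the 2-fold limits dashed. Probes are numbered in alphabetical order of probe name and not by position on the chromosome. Probes of Cdkn1b, Cdkn2a and Cdkn2b kept 1 direction for both genotype comparisons, whereas the 2 Btg1 probes had opposite signs in the Lpar1 comparison.

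Over the whole set, 3 of 10 members were higher and 5 lower in the labelled Pla2g3-/- coculture than in the Pla2g3+/+ coculture, where 9.11% of 22491 genes were higher and 10.4% lower. With Lpar1-/- fibroblasts, 3 were higher and 4 lower than with Lpar1+/+ fibroblasts, where 11.3% of 24531 genes were higher and 8.85% lower. The median difference of the members was -0.67 in both comparisons, against -0.08 and -0.05 over all genes. Between labelled Pla2g3-/- and Pla2g3+/+ cells alone, 0 members were called, where 0.414% of 21726 genes were higher and 1.57% lower. Between the WT coculture with Lpar1+/+ fibroblasts and the Pla2g3+/+ coculture, 0 members were called, where 0.792% of 23996 genes were higher and 0.167% lower. An alternative scale, set by the uncentred level of the mast cell markers, was added after the data were seen. It moved the median of all genes by 0.69 and 0.80 in the 2 genotype comparisons in coculture. For the labelled genotype 3 members were higher and 1 lower on it, where 6075 of 22491 genes were higher and 860 lower. For the fibroblast genotype the same 3 were higher and 0 lower, where 8657 of 24531 genes were higher and 753 lower. No called difference turned its sign.

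**Figure D3:**
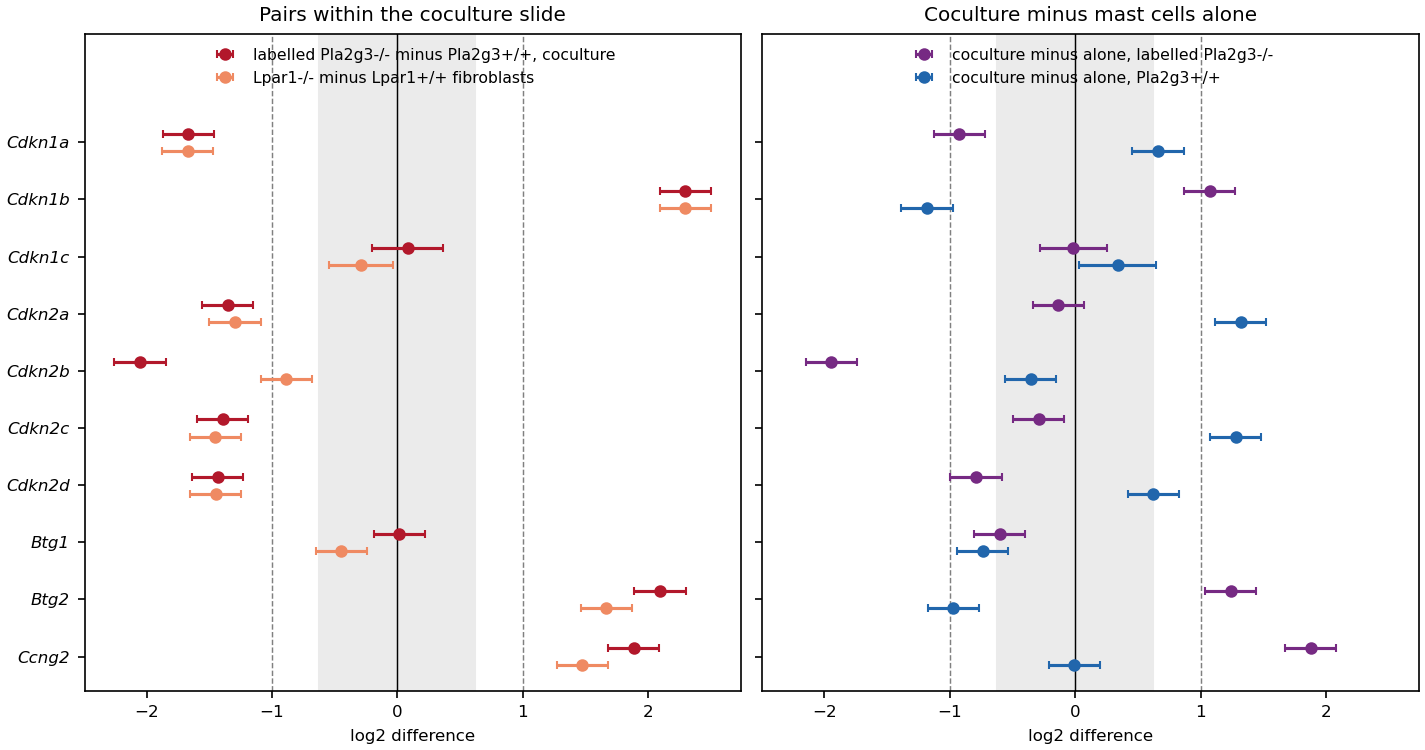
Log2 differences of the 10 genes, brightest probe, with spot error bars. The left panel has both genotype comparisons in coculture and the right panel both comparisons of coculture with cells alone. Dashed lines mark 2-fold and the grey band the 0.62 within which 95% of genes differed between the unaltered cocultures. The band comes from arrays of the same slide, whereas the right panel compares arrays of different slides.

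The genotype comparison in coculture and the Lpar1 comparison share no array, and their members' values were close. Cdkn1b, Btg2 and Ccng2 were higher in both, as were 7.77% of 22418 genes compared in both. Cdkn1a, Cdkn2a, Cdkn2c and Cdkn2d were lower in both, as were 6.87% of those genes. No member was called in opposite directions, as 0.170% of genes were. Pearson's r was 0.96 and Spearman's rho 0.87 over the 10 members, against 0.85 and 0.81 over the 22418 genes, a description across genes that are not independent of each other. The share of members with the same sign, 80.0%, was near that of all genes, 81.6%.

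**Figure D4:**
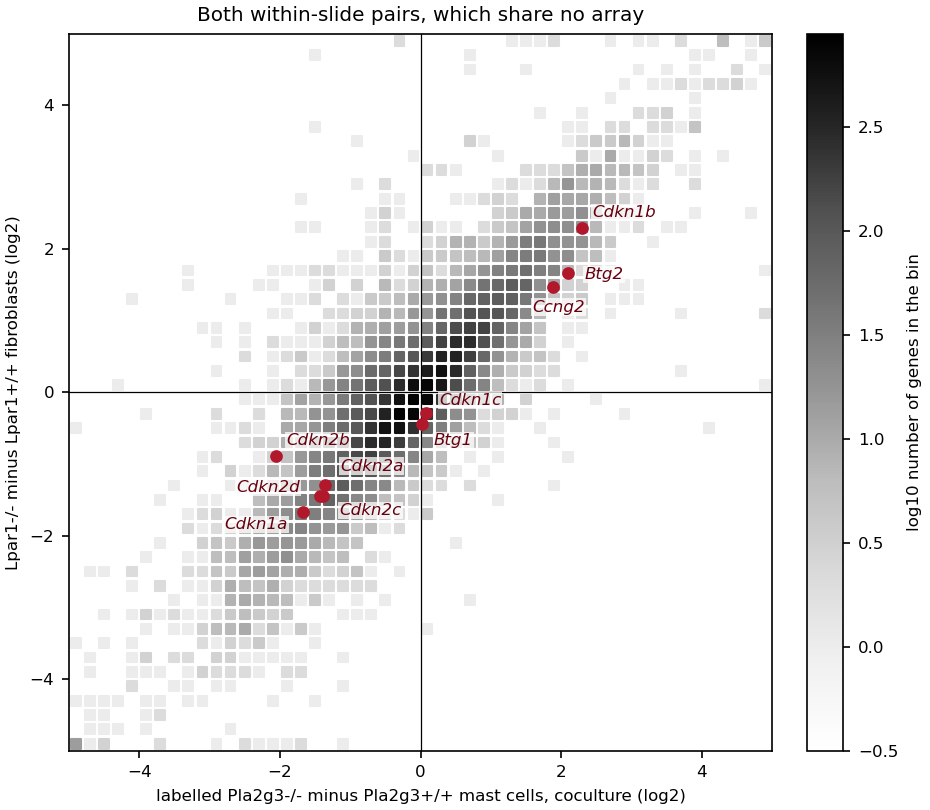
Log2 difference with Lpar1-/- over Lpar1+/+ fibroblasts against that of labelled Pla2g3-/- over Pla2g3+/+ mast cells in coculture. Grey bins give the log10 number of genes, with genes beyond the axes drawn in the edge bins, and red points the 10 members. The members lie along the diagonal of all genes, with Cdkn2b farthest off it.

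Coculture moved the members differently under the 2 labels. In Pla2g3+/+ cells, 2 members, Cdkn2a at 1.32 and Cdkn2c at 1.28, were higher in coculture than alone, where 13% of 22606 genes were higher. Cdkn1b, at -1.18, was the 1 member lower, where 7.52% of genes were lower. In cells labelled Pla2g3-/-, Ccng2 at 1.88, Btg2 at 1.24 and Cdkn1b at 1.07 were higher in coculture, where 11.4% of 22337 genes were higher, and Cdkn2b at -1.95 was lower, where 7.28% were. Effects had opposite signs under the 2 labels for 8 of 10 members, against 34.2% of 21816 genes. Signs were opposite and both effects past their spot error for 5 of 10 members, against 14.2% of the 21816 genes. Of the other members with opposite signs, Cdkn1c and Ccng2 had an effect of -0.01 under one label. Cdkn2a had an effect of -0.13 with a spot error of 0.20 under the Pla2g3-/- label. The effect under the Pla2g3-/- label minus that of Pla2g3+/+ cells was past 2-fold for 8 members, positive for 3 and negative for 5, where 9.74% of 21816 genes were positive and 10.5% negative. It ranged between 2.26 for Cdkn1b and -1.59 for Cdkn2b, and any offset between slides cancels in it. These comparisons reuse the coculture arrays of the genotype comparison, so their values are not separate evidence. Over all genes, 2947 were higher and 1700 lower in Pla2g3+/+ coculture, but 2199 and 2198 after quantile normalization, and under the Pla2g3-/- label 2544 were higher and 1627 lower, but 1906 and 1836 after it. On the scale of the uncentred mast cell markers the calls of Cdkn2a and Cdkn2c in Pla2g3+/+ cells were lost, at 0.20 and 0.16, and the effects of Cdkn1a and Cdkn2d there, 0.66 and 0.62, became -0.46 and -0.50. Under the Pla2g3-/- label the higher calls of Cdkn1b and Btg2 were lost on that scale, at 0.67 and 0.84, and on the centred form of it, at 0.76 and 0.93.

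Most of the cell cycle genes listed beside the inhibitors were lower in both altered cocultures. Of 15 cyclins, CDKs and CDC25 phosphatases, 0 were higher and 9 lower in the labelled Pla2g3-/- coculture (median -1.83), and 0 higher and 10 lower with Lpar1-/- fibroblasts (median -1.81). Ccna2, the S-phase and G2 cyclin, differed by -2.35 and -2.81, Cdk1 by -2.31 and -2.66, and the G1/S cyclin Ccne1 by -2.46 and -2.28. Of 17 proliferation markers, 14 were lower in each comparison and 0 higher, with medians of -1.88 and -1.78; on the scale of the uncentred mast cell markers 9 and 8 were lower, with medians of -1.19 and -0.98. Their summed level was 73.7 in the labelled Pla2g3-/- coculture against 207 in the Pla2g3+/+ coculture, 60.4 with Lpar1-/- against 197 with Lpar1+/+ fibroblasts, and 107 and 97.5 in the labelled Pla2g3-/- and Pla2g3+/+ cells alone. These markers were thus lowest on the arrays where Cdkn1b, Btg2 and Ccng2 were highest and Cdkn1a and the Ink4 genes lowest. For Cdkn2a and Cdkn2c the gap to the nearest cells alone was 0.03 and 0.11, within the spot error of 0.20. The part of the proliferation markers in those results was not tested. In the RB and E2F list of 13 genes, 0 were higher and 6 lower for the labelled genotype, and 1 higher and 5 lower for the fibroblast genotype. E2f2 differed by -2.62 and -3.61, and Rbl2, the p130 pocket protein of resting cells, was the higher one at 1.26.

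The genes that degrade or bind p27 and p21 protein were mostly within 2-fold: of 11, 0 were higher and 2 lower in either comparison. The 2 were Cks1b, the cofactor of the p27 ubiquitin ligase, at -2.07 and -2.21, and Dtl, which targets p21 during S phase, at -1.71 and -2.19. Among 12 other CDK regulators, 4 and 3 were lower and 0 higher. Cdkn3, a phosphatase that acts on CDKs and is not an inhibitor of the families above, differed by -2.54 and -3.53.

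Regulators of the members were mixed. Of 22 FOXO factors and genes described as their targets, 9 were higher and 2 lower in each comparison, with medians of 0.60 and 0.52. Txnip, a thioredoxin-binding protein, differed by 3.90 and 4.02, the ubiquitin ligase gene Fbxo32 by 2.52 and 2.32, and the PI3-kinase inhibitor gene Pik3ip1 by 2.29 and 2.11, while the transcription factor gene Klf2 was lower at -4.43 and -3.01. Cdkn1b and Ccng2 are themselves described as FOXO targets. Of 24 p53 pathway genes, 4 were higher and 5 lower in each, with medians of -0.04 and -0.02. The uncentred mast cell scale, which moved the median of all genes by 0.69 and 0.80, turned both p53 medians, to 0.65 and 0.78. On it 8 of the p53 list were higher and 1 lower, and 9 higher and 0 lower. It gave 13 higher and 1 lower of the FOXO list in each. Over all genes it gave 6075 higher and 860 lower of 22491, and 8657 higher and 753 lower of 24531. The DNA repair gene Xpc was higher at 2.24 and 2.26 and the membrane protein gene Perp lower at -2.34 and -1.40. The p53 targets among the members, Btg2 and Cdkn1a, were called in opposite directions. In the MYC list of 11 genes, 1 was higher and 3 lower in each: Myc at -2.84 and -2.88, Mycn at -2.97 and -3.82, and Mxd3 at -1.44 and -3.33. Of 14 regulators of the Ink4 locus, 1 was higher and 4 lower for the labelled genotype and 1 higher and 3 lower for the fibroblast genotype, with the Polycomb gene Cbx8 higher in both, by 1.73 for the fibroblast genotype, and the ETS factor gene Ets2 lower at -1.79 and -1.48; on the uncentred scale these counts were 1 and 1, and 3 and 0. Of 16 other BTG, TOB and CCR4-NOT genes, 0 were called in either comparison, with 0 to 3 called higher for the labelled genotype and 0 to 6 for the fibroblast genotype over the scalings tried, the most on the uncentred mast cell scale.

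**Figure D5:**
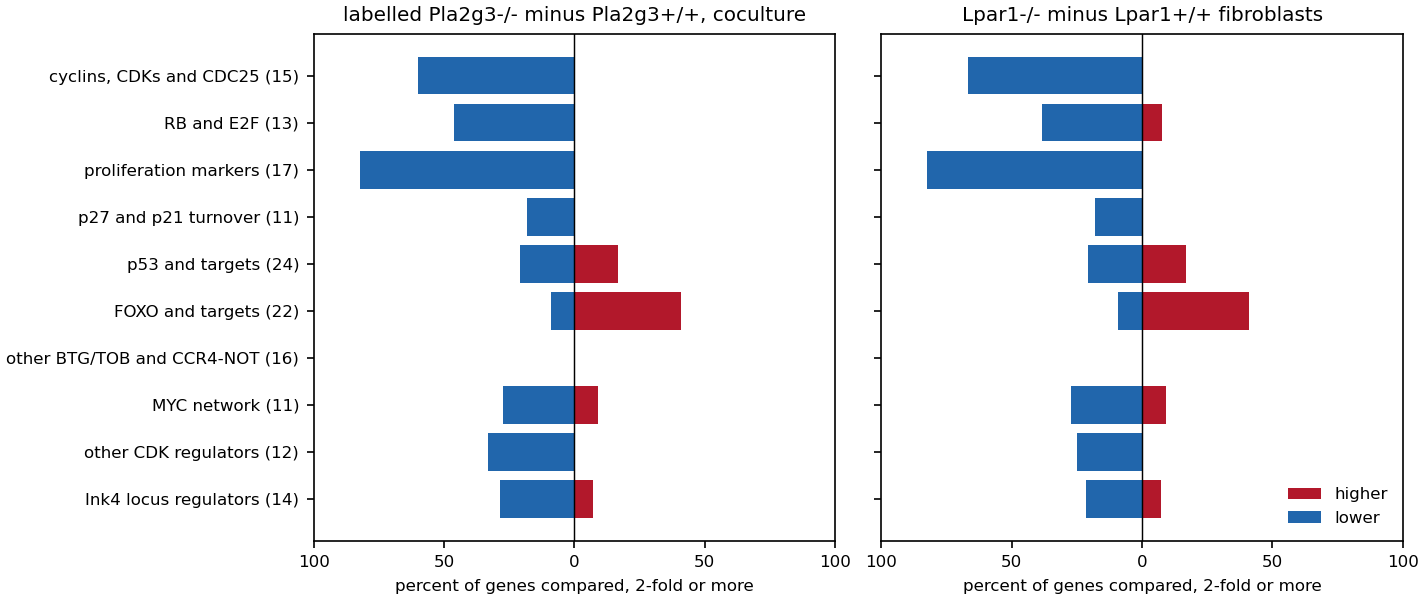
Percent of the genes compared in each list, with the number of genes in brackets, that were lower (left of 0) or higher (right of 0) by 2-fold or more, for the labelled Pla2g3 genotype in coculture and for the Lpar1 fibroblasts. Of the 17 proliferation markers 14 were lower in each panel, and of the 22 genes in the FOXO list 9 were higher.

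Markers of other cells were also measured beside these results. The summed level of 14 fibroblast markers was 14.5 in the labelled Pla2g3-/- coculture against 33.2 in the Pla2g3+/+ coculture, 31.3 with Lpar1-/- against 34.4 with Lpar1+/+ fibroblasts, and 0.183 and 0.380 in the labelled Pla2g3-/- and Pla2g3+/+ cells alone. Of these, Lum was well above background on 0 arrays and Postn on the Lpar1-/- array alone. Of 12 compared, 7 were lower and 0 higher in the labelled Pla2g3-/- coculture, such as the proteoglycan gene Dcn by -2.45. Of 13 compared, 3 were higher and 0 lower with Lpar1-/- fibroblasts: Thy1 by 196-fold, Postn at least 15.9-fold and Pdgfrb 2.18-fold. The part of fibroblast RNA in the member results was not tested. Summed levels of 11 neutrophil and eosinophil markers were 1.96 against 4.40 for the labelled Pla2g3-/- and Pla2g3+/+ cocultures, 13.6 against 4.85 for Lpar1-/- and Lpar1+/+ fibroblasts, and 2.73 against 42.7 for the labelled Pla2g3-/- and Pla2g3+/+ cells alone. Between the Lpar1 arrays 8 of 10 compared were higher. Sums of 8 macrophage markers lay between 13.0 and 17.9 on the 6 arrays, but 5 were lower and 0 higher in the labelled Pla2g3-/- coculture and 3 were lower and 0 higher with Lpar1-/- fibroblasts, among them Cd68 by 3.70-fold and 8.21-fold. Sums of 5 megakaryocyte markers lay between 23.4 and 38.5. In the labelled Pla2g3-/- coculture 2 of them were lower, and with Lpar1-/- fibroblasts 1 was lower and 1 higher. Between the labelled Pla2g3-/- and Pla2g3+/+ cells alone, Pf4 was 27.7-fold and Ppbp at least 43.9-fold lower. The part of these cells in the member results was not tested.

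Genes with the most similar profile were found by the root mean square difference over the 6 arrays between profiles centred on their own mean, among 8181 genes well above background on all arrays with a range of at least 1. For Cdkn1b the nearest named genes were Calhm2 (0.05) and Oit3 (0.06), with an unnamed probe between them. For Cdkn1a they were Utp14b (0.06), Nsdhl and Xkr5 (0.09 each), for Cdkn2d Ireb2 (0.04), Rfc4 and Polr3d, for Cdkn2a B3gnt9 (0.04), Lmo2 and Wdr62, and for Cdkn2c Vill (0.05), Nasp and Nectin1. Ccng2 was nearest to Slc16a10 (0.07), Icam5 and Jade2, Btg2 to D830025C05Rik (0.10), Crb3 and Bicd1, and Cdkn2b to Nlrc5 (0.11), Gbp4 and Hsd11b1. Within the set, Cdkn1a and Cdkn2d were 0.13 apart, as were Cdkn2a and Cdkn2c, and Cdkn1b was 0.28 from Btg2. Cdkn2b had no near relative, since its closest member, Cdkn1a, was 0.50 away.

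Promoters are shown for the members that were higher in both altered cocultures, because they moved together, and for Cdkn1a and Cdkn2d, which were lower in both and had the closest profiles among the members. RefSeq sequences of GRCm38.p6 held 12 starts for 9 of the 10 members; Cdkn1c is named only. Each sequence is the 250 bases before the start, on the gene's strand, with matches to the motifs below in capitals.
Cdkn1b, chr6:134920151-134920400, plus strand: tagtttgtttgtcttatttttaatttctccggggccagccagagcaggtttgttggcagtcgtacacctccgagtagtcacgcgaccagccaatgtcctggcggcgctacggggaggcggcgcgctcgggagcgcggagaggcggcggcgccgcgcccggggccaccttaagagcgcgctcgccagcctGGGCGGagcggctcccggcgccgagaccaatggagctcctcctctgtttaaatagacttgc
Btg2, chr1:134079156-134079405, minus strand: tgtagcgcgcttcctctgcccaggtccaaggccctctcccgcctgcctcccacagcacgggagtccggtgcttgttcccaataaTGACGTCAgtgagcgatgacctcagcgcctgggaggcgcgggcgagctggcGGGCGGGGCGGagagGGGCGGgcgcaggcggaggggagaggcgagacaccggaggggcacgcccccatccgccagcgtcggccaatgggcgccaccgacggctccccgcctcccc
Ccng2, chr5:93267323-93267572, plus strand: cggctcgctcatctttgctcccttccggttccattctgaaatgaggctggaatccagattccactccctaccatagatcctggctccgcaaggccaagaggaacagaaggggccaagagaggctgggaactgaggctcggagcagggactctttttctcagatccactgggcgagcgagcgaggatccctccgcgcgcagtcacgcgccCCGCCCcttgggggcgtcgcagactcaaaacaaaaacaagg
Cdkn1a, chr17:29090729-29090978, plus strand: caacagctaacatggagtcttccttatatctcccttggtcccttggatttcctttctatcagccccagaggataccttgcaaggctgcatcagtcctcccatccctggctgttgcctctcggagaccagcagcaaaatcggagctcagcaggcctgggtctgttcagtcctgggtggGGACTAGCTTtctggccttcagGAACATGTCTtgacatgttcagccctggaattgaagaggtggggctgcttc
Cdkn2d, chr9:21291210-21291459, minus strand: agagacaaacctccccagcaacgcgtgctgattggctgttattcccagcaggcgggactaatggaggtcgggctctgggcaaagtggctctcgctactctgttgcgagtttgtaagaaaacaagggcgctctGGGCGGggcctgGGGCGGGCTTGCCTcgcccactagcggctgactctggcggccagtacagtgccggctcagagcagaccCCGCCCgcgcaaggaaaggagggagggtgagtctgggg

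These windows were searched on both strands for GTAAACA (FOXO), TGACGTCA (CRE), TGANTCA (AP-1), CACGTG (E-box), TTTNGCGC (E2F), GGGCGG (GC box) and the p53 half-site. The GC box was in 8 of the 12 member promoters, against 32.7% of 32851 promoters of the same length. The 3 genes that were higher in both comparisons each held at least 1 GC box. So did Cdkn1a, Cdkn2a, Cdkn2c and Cdkn2d, which were lower in both, in at least 1 window. Btg2 in addition held the CRE between -166 and -159, a motif in 1.55% of all promoters and otherwise found in Cdkn2b among the members. The p53 half-site was in 2 of the 12 member promoters, against 7.13% of all promoters. The Cdkn1a window shown held 2 half-sites, between -73 and -64 and between -51 and -42. The window of another Cdkn1a start, chr17:29093519-29093768, is not shown. It held no p53 half-site, but GC boxes between -104 and -99 and between -46 and -41. The Cdkn2d window held 1 half-site, between -102 and -93, which overlaps a GC box. The FOXO letters were in the Btg1 window, against 3.17% of promoters, and the E2F letters in 1 Cdkn2a window, against 1.13%. AP-1 and E-box letters were in 0 of the 12, against 6.75% and 6.02% of promoters. These matches describe letters in a window and no binding was measured.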

How the data were processed

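RNA of 6 groups of mast cells, alone or in coculture with fibroblasts, was hybridised to 6 single-colour Agilent arrays, 1 for each group. Coculture arrays also read fibroblast markers, at summed levels between 14.5 and 34.4. Per the labels, each RNA was a pool of 3 samples. Per the submitters' processing notes, spots were read with Agilent Feature Extraction 12.1.1.1. The deposited scanner files give a processed intensity for each spot, detrended and background-subtracted by the authors' software per the file headers, with an error model whose multiplicative part is 10%. Low intensities can therefore rest on the software's surrogate value. The deposited value table is a linear signal that equalled the processed intensity divided by 1 constant for each array. It served as an alternative.

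From the 43020 non-control spots, outlier flags were left out, spots of a probe were averaged after subtracting each array's 75th percentile in log2, and the probe with the highest mean stood for a gene. Per array, between 70.7% and 80.4% of spots were well above background, 0 were saturated, and the 75th percentile lay between 1230 and 1520 intensity units. A gene was compared where 1 of the 2 arrays had it well above background, with a bound where the other did not. Symbols were updated through accessions (33002 spots), symbols (3072) or synonyms (16) in RefSeq's gene table, and 6930 spots kept the file's name.

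With 1 array for each group no test was made, and calls are at 2-fold or more. The precision is limited by the number of arrays. Named genes are all members, up to 4 highest and 4 lowest genes past 2-fold of each context list, of which the text gives some, and the 3 most similar profiles. The members and lists were chosen with earlier results of these data known. Alternatives were background correction by normexp (limma 3.58.1, R 4.3.3, offset 50), quantile normalization, other percentiles, filters, probe rules and folds, and, added after the data were seen, scaling on mast cell markers. Computation used Python 3.11.15 and pandas 2.3.3. Sequences are from the scanner files (mm9) and RefSeq (GRCm38.p6); no gene models of mm9 were used here.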

Additional observations from a re-analysis of the deposited data

Results flagged for a closer look

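For 5 members the effect of coculture ran one way under the Pla2g3-/- label and the other way in Pla2g3+/+ cells, each effect being larger than its spot error, as was so for 14.2% of 21816 genes. With 1 array for each group the difference between the effects was not tested. The list was widened after values were seen: asking that both effects pass 2-fold would have left Cdkn1b alone. Cdkn1b differed by 1.07 in labelled Pla2g3-/- cells and -1.18 in Pla2g3+/+ cells, a difference of effects of 2.26. Btg2 differed by 1.24 and -0.97, a difference of 2.21. Cdkn1a differed by -0.92 and 0.66, a difference of -1.58. For Cdkn2c the effects were -0.29 and 1.28, a difference of -1.57, and for Cdkn2d -0.79 and 0.62, a difference of -1.41. The Pla2g3 signal goes against the labels of both arrays in the first of each of these pairs. On the scale of the uncentred mast cell markers the effects of Cdkn1a and Cdkn2d in Pla2g3+/+ cells became negative, as given above. Under the Pla2g3-/- label they were -1.32 and -1.19 on that scale, so the signs were then the same. Summed proliferation markers were 73.7 and 107 in labelled Pla2g3-/- coculture and cells alone, and 207 and 97.5 in Pla2g3+/+ coculture and cells alone. Their part in these differences was not tested.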

How the results depend on the processing

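No called member difference turned its sign under any alternative run, and the counts of higher and lower members in both genotype comparisons in coculture stayed within 1.5 times under every alternative but one. No paired analysis was possible because each group had 1 array, and for the same reason no array could be left out. The exception was a scaling on the uncentred median level of the mast cell markers. It was added after the data were seen and then replaced, also after its output was seen, by a scaling on the same markers each centred on its own mean, because an uncentred median sets probes against each other. Both are given. The uncentred form left 1 lower member for the labelled genotype in coculture, 0 with Lpar1-/- fibroblasts and 0 for the difference of coculture effects. In the same order, 860 of 22491, 753 of 24531 and 766 of 21816 genes were lower on it. For coculture of Pla2g3+/+ cells the uncentred form gave 0 members higher and 5 lower, where 855 of 22606 genes were higher and 11129 lower. Under the Pla2g3-/- label it gave 1 higher and 4 lower, where 1373 of 22337 genes were higher and 3362 lower. It moved the median of all genes by as much as -1.12. The centred form gave 2 lower in Pla2g3+/+ cells, where 2355 of 22606 genes were lower. Under the Pla2g3-/- label it gave 1 higher and 3 lower, where 1548 of 22337 genes were higher and 2834 lower. Quantile normalization and the mean of all probes each gave 2 lower in Pla2g3+/+ cells, where 2198 of 22605 and 1637 of 22615 genes were lower. The mean of probes gave 2 lower under the Pla2g3-/- label, where 1581 of 22349 genes were lower. At 1.5-fold there were 4 higher and 3 lower in Pla2g3+/+ cells, where 5690 of 22606 genes were higher and 3307 lower. Under the Pla2g3-/- label 4 were lower, where 3478 of 22337 genes were. Between the unaltered cocultures 1 was higher, Btg2, where 965 of 23996 genes were. Single calls that changed were Btg2 with quantile normalization (-1.07 in Pla2g3+/+ coculture over alone) and, with the mean of probes, Btg1 (-1.88 and -1.14 in coculture over alone in Pla2g3+/+ and labelled Pla2g3-/- cells), Cdkn1b (0.84 under the Pla2g3-/- label) and Cdkn2b (-1.03 for the Lpar1 fibroblasts). The cause of these changes was not tested.

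Counts over all genes moved more. For the labelled genotype in coculture 2049 genes were higher and 2342 lower, against 1339 and 1210 with normexp, 2375 and 4007 with no filter, and 3907 and 4744 at 1.5-fold. For coculture of Pla2g3+/+ cells normexp gave 1408 higher and 1037 lower, and 1.5-fold 5690 and 3307; under the Pla2g3-/- label they gave 1115 and 914, and 5447 and 3478, and no filter 3205 lower. Between the cells alone 90 were higher and 342 lower, against 23 and 94 with normexp and 722 and 994 with no filter. Between the unaltered cocultures 190 were higher and 40 lower, against 4 and 0 with normexp, 1438 and 370 with no filter, and 145 and 173 with quantile normalization. For the difference of coculture effects 2125 were positive and 2285 negative, against 1373 and 1153 with normexp. The uncentred mast cell scaling gave 6075 higher and 860 lower for the labelled genotype in coculture and 8657 and 753 for the Lpar1 fibroblasts. For the Lpar1 fibroblasts 2768 were higher and 2170 lower, against 1592 and 1452 with normexp and 4977 and 4533 at 1.5-fold. The higher share of called genes there was 56.1%, against 67.1% with centred mast cell markers. Normexp moved the median of all genes by 0.19 for the labelled genotype in coculture and by -0.18 for coculture of Pla2g3+/+ cells.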

Other observations

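Btg3, another BTG family gene, read 0.88 in the labelled Pla2g3-/- coculture against 2.48 in the labelled Pla2g3-/- cells alone, and 1.59 against 2.77 in the Pla2g3+/+ coculture and cells alone. It was thus lower by 2-fold or more under both labels. The D-type cyclin gene Ccnd1 read -0.48 against -4.63 in labelled Pla2g3-/- coculture and cells alone, and 1.34 against -4.36 in the Pla2g3+/+ pair. Between the cocultures Ccnd1 differed 3.52-fold for the labelled genotype and 2.74-fold for the Lpar1 fibroblasts, lower in each altered coculture. Of 12 fibroblast markers compared, 11 were higher and 1, Thy1, lower in coculture than in cells alone under either label, and their part in the Ccnd1 level was not tested.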
